A study of Homo sapiens with 12 samples.

Results

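The transcripts of 10 genes of cellular iron handling were followed: TFRC and SLC11A2 for uptake, FTH1, FTL and NCOA4 for storage and its release, SLC40A1 for export, SLC25A37 for delivery to mitochondria, HMOX1 for haem breakdown, and ACO1 and IREB2 for sensing. They were chosen by symbol from 58233 listed genes, and all 10 were found, each on 1 line. RNA was sequenced in 12 libraries of K562, a leukaemia line with erythroid features that makes haem and fetal globin. All groups share this background. The 3 parental clones carry a mutant ASXL1 allele, and in 3 further clones that allele was disrupted with CRISPR/Cas9. The other libraries came from edited pools rather than clones, and comprised 2 pools with the SCR control guide, 2 with a FOXK1 guide and 2 with a FOXK2 guide (sgSCR, sgFOXK1 and sgFOXK2). No drug, iron salt or iron chelator is named in the labels. The values are FPKM, fragment numbers set relative to transcript length and to the size of the library, which allows levels of different genes to be set side by side.

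Cells take up iron by binding transferrin to the receptor TFRC, and the endosomal transporter SLC11A2 moves the released iron into the cytosol. Iron that is not used is stored inside ferritin shells of FTH1 and FTL chains, and NCOA4 carries ferritin to lysosomes to free it. When iron is scarce, the regulatory proteins encoded by ACO1 and IREB2 bind hairpins called iron-responsive elements. Binding in a 5' UTR blocks translation of ferritin and of the exporter SLC40A1, and binding in the TFRC 3' UTR protects that transcript from decay. Of these effects, the stability of TFRC is visible in transcript levels, while blocked translation is not. Erythroid cells send most of their iron to mitochondria through SLC25A37, also called mitoferrin, where it is built into haem.

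Matches to a strict pattern of the iron-responsive element are shown for the 4 of the 10 genes that held any. The transcripts were read from GENCODE 29 on GRCh38 and searched on the sense strand for CNNNNNCAGUGNNNNNN in which the 5 bases on either side of the loop pair as a stem, with G-U pairs allowed. Capitals mark the 6-base CAGUGN loop, and 5 bases of flank stand on the outer side of each stem.
TFRC 1 (3' UTR, chr3:196050980-196051006, minus strand): auuaucggaagCAGUGCcuuccauaau
TFRC 2 (3' UTR, chr3:196050576-196050602, minus strand): auuaucgggagCAGUGUcuuccauaau
TFRC 3 (3' UTR, chr3:196050511-196050537, minus strand): uguaucggagaCAGUGAucuccauaug
TFRC 4 (3' UTR, chr3:196050464-196050490, minus strand): auuaucgggaaCAGUGUuucccauaau
FTH1 (5' UTR, chr11:61967575-61967601, minus strand): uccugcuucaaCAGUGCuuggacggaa
FTL (5' UTR, chr19:48965336-48965362, plus strand): ucuugcuucaaCAGUGUuuggacggaa
SLC40A1 (5' UTR, chr2:189580662-189580688, minus strand): aacuucagcuaCAGUGUuagcuaaguu

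TFRC held 4 matches and the other 3 genes 1 each, while the remaining 6 genes held none under this rule. The rule can miss elements, since it also found 0 in EPAS1 and CDC42BPA, both read below as transcripts with described elements. A gene without a match may therefore still hold an element. The same pattern was present in 291 of 19702 protein-coding genes, or 1.477%, so a match describes letters and does not show that a protein binds there. No protein binding, translation or iron level was measured.

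Across the 12 libraries the mean level fell in the order FTL (3275 FPKM), FTH1 (1592), TFRC (338), SLC25A37 (105), NCOA4 (82.6), SLC40A1 (38.4), SLC11A2 (24.8), IREB2 (22.9), ACO1 (14.5) and HMOX1 (0.0366). FTL lay above FTH1 in every library, although their ranges over the libraries overlapped. SLC25A37 and NCOA4 did not keep one order, since SLC25A37 was the higher in 7 of 12 libraries, and SLC11A2 exceeded IREB2 in 9 of 12. The ratio of the highest to the lowest library was 3.14 for SLC25A37, 2.49 for FTH1 (1.52 without the sgSCR 2 pool, which stood apart for this gene), 1.96 for SLC40A1, 1.72 for FTL and 1.33 for TFRC. It was 1.29 for SLC11A2, 1.27 for IREB2, 1.22 for ACO1 and 1.119 for NCOA4. The ferritin chains, the exporter and mitoferrin therefore spanned wider ranges than the uptake genes, the ferritin carrier and the sensors.

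**Figure D1:**
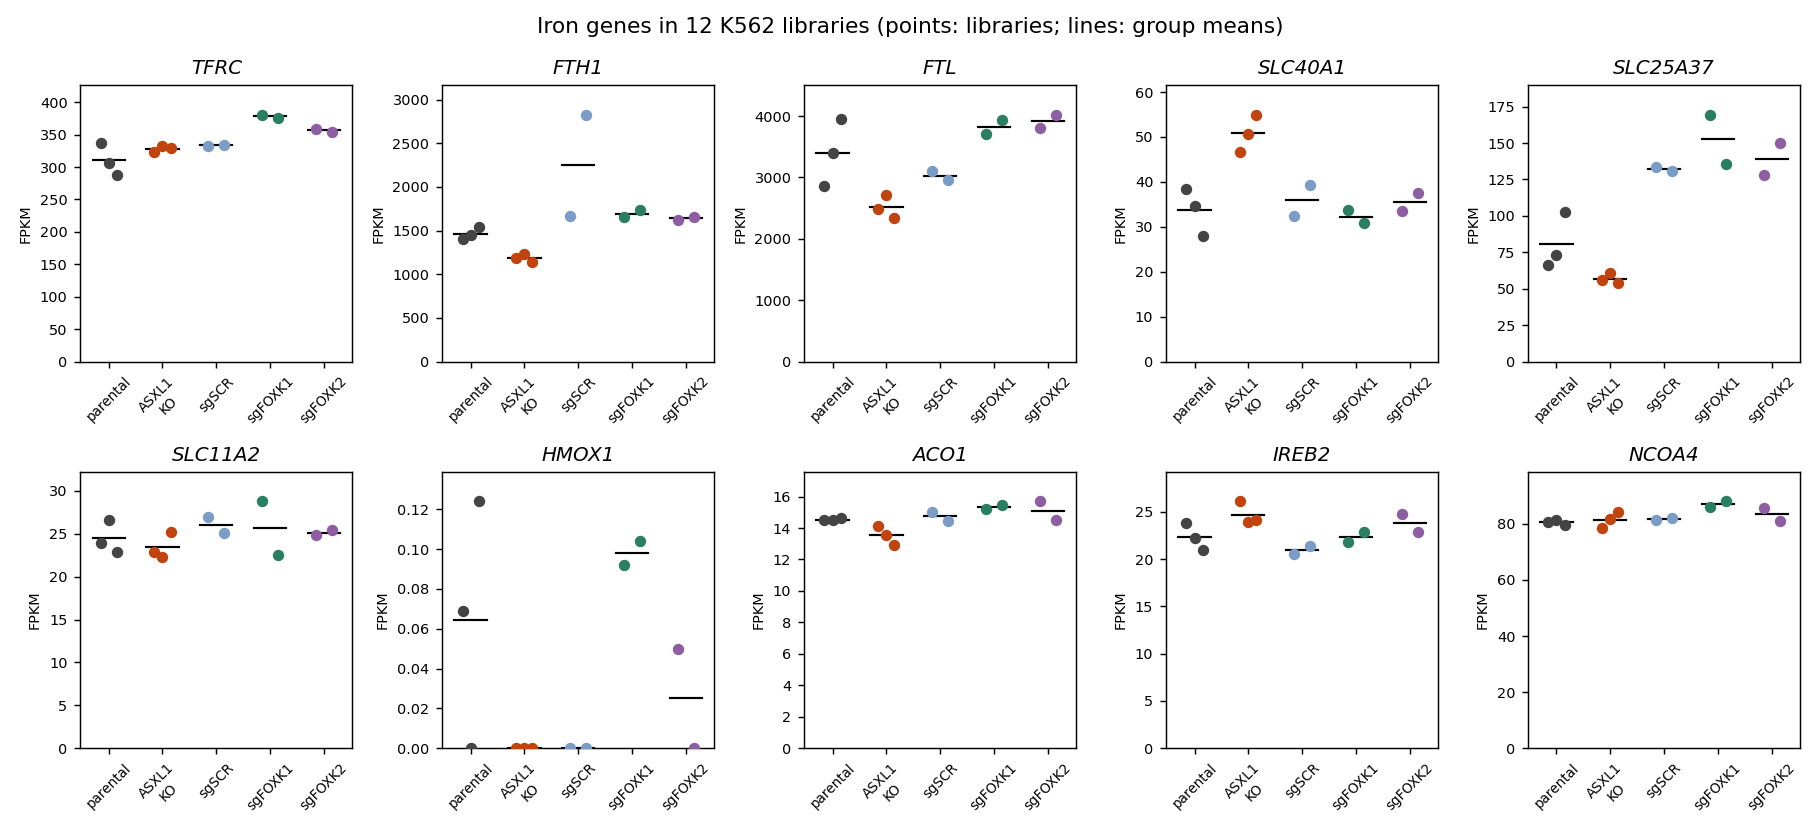
FPKM of the 10 iron genes in each of 12 libraries, grouped as parental clones, mutant ASXL1 knockout clones (ASXL1 KO), and sgSCR, sgFOXK1 and sgFOXK2 pools. Points are libraries, lines are group means and every axis starts at 0. FTH1 stands at 2828 FPKM in 1 sgSCR pool and at 1671 in the other, and the 3 knockout clones lie below all parental clones for FTH1 and FTL and above them for SLC40A1.

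The libraries hold summed FPKM of 824692 to 975657, and 13348 to 13681 genes reached 1 FPKM in each. The 3 knockout clones had the lowest sums, at 839261 or less. Read counts are not in the tables used here, so depth is unknown and no counting interval is given. Of the targeted transcripts, ASXL1 was at 29.4 ± 2.53 FPKM in its knockout clones against 49.4 ± 9.36 (SD, n = 3; adjusted p = 0.0142, limma). FOXK2 was at 26.5 ± 1.45 in its pools against 41.7 ± 1.34 (SD, n = 2; adjusted p = 0.0445, limma), and FOXK1 at 5.83 ± 0.345 against 6.25 ± 0.0184 (adjusted p = 0.648, limma). The authors' deposited table lists log2 changes of -0.08 for ASXL1 (adjusted p = 0.436), -0.59 for FOXK2 (2.52e-17) and -0.26 for FOXK1 (0.0189). An edit can disable a gene without lowering its transcript, which limits this check of the labels. Lists of macrophage, hepatocyte, fibroblast, lymphoid and endothelial markers held at most 1 gene that reached 1 FPKM, and MARCO, MS4A1, CDH5 and KDR were at 0 in all 12 libraries. All 9 erythroid marker genes reached 1 FPKM.

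The first comparison asks how loss of the mutant ASXL1 allele changes transcripts. In the knockout clones both ferritin chains were called lower, and SLC40A1, which encodes the exporter ferroportin, was called higher. The call held in 14 of 14 alternative settings for FTH1, in 4 of 14 for FTL and in 8 of 13 for SLC40A1. TFRC and SLC11A2 did not pass the test. Differences are on the log2(FPKM + 1) scale, SE is the standard error from limma, and calls needed an adjusted p under 0.05 (Benjamini-Hochberg, over all tested genes). Of the 10 genes 9 passed the filter on low values, and 1 was called higher and 2 lower, where 7.91% and 14.4% of all 13597 tested genes were called higher and lower (22.4% in all). The median change of the 9 was -0.06, the same as over all tested genes. The share of calls that were higher over all genes was 35.4%, and it was 51.0% after median-ratio scaling, 45.01% after upper-quartile scaling and 56.4% with the library factors removed.

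FTH1 (ENSG00000167996; chr11:61959718-61967660, minus strand) encodes the ferritin heavy chain, which oxidises iron for storage. Its level was 1399.98, 1449.9 and 1536 FPKM in the parental clones and 1187, 1234 and 1138 in the knockout clones. Each knockout clone was lower than each parental clone, by a gap wider than the spread within either group. The fall was 0.81-fold (log2 -0.30, SE 0.05, adjusted p = 0.00855, limma), and it was called in 14 of 14 alternative settings. In bulk RNA, fewer cells of a type and less RNA per cell cannot be told apart.

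FTL (ENSG00000087086; chr19:48965301-48966878, plus strand) encodes the light chain, which helps form the iron core. It stood at 2859, 3391 and 3959.9 FPKM in the parental clones and at 2486, 2713 and 2342 in the knockout clones. The groups did not overlap, but parental clone 1 lay close to the highest knockout clone and far below parental clone 3. The fall was 0.74-fold (log2 -0.43, SE 0.12, adjusted p = 0.0410, limma). It was called in 4 of 14 alternative settings, over which the adjusted p ran from 0.0138 to 0.133. The call was lost without parental clone 2 (adjusted p = 0.111) or 3 (0.0620), without knockout clone 1 (0.117), 2 (0.0655) or 3 (0.133), with a replicate block (0.0682), with median-ratio scaling (0.0530), with the library factors removed (0.0580), with no variance trend (0.0692) and with no filter (0.127).

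Copies of the ferritin genes added little to these levels. The 25 listed FTH1 pseudogenes summed to 1.37 to 5.00 FPKM per library, at most 0.301% of FTH1, with FTH1P3, FTH1P16 and FTH1P1 the highest. The 14 FTL pseudogenes summed to at most 2.21 FPKM, or 0.056% of FTL, led by FTLP6, FTLP8 and FTLP16. How reads shared between a gene and its copies were assigned is not given in the sources used here. BEST1, which overlaps FTH1 on the opposite strand, reached at most 6.41 FPKM, and the sources do not say whether reads were counted by strand.

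SLC40A1 (ENSG00000138449; chr2:189560579-189583758, minus strand) was at 38.3, 34.7 and 28.03 FPKM in the parental clones and at 46.7, 50.8 and 54.98 in the knockout clones. Every knockout clone exceeded every parental clone, and also every pool, since the 6 pools lay between 30.8 and 39.3. The rise was 1.502-fold (log2 0.59, SE 0.12, adjusted p = 0.0168, limma), the widest limma change among the 9 tested genes. The authors' deposited table lists a smaller rise for SLC40A1, 0.31 on the log2 scale. There FTL (-0.38) and SLC25A37 (-0.32) changed more. The limma rise of SLC40A1 was called in 8 of 13 alternative settings, with an adjusted p of 0.0150 to 0.0683. The call was lost without parental clone 2 (0.0508) or knockout clone 2 (0.0530) or 3 (0.0683), with a replicate block (0.0524) and with no filter (0.0504).

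SLC25A37 (ENSG00000147454; chromosome 8) was at 66.2, 72.8 and 102.7 FPKM in the parental clones and at 56.2, 60.7 and 54.0 in the knockout clones. The groups did not overlap, and parental clone 3 stood well above the other two. The difference was -0.47 (SE 0.15) and missed the threshold (adjusted p = 0.0706, limma). It passed in 2 of 13 alternative settings. Without parental clone 1 the difference was -0.59 (adjusted p = 0.0391, limma), and without parental clone 3 it was -0.28 (adjusted p = 0.0473, limma). The authors' deposited table lists -0.32 on the log2 scale (adjusted p = 0.000873).

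TFRC (ENSG00000072274; chr3:196027183-196082189, minus strand) held 338, 306 and 287 FPKM in the parental clones and 323, 333 and 329 in the knockout clones. The knockout clones lay inside the wider parental range. The difference was 0.08 (SE 0.06, interval -0.07 to 0.23, adjusted p = 0.375, limma). The authors' deposited table lists 0.29 on the log2 scale (adjusted p = 0.0033), a larger rise than the deposited FPKM hold. In the authors' deposited table for this comparison, TFRC and SLC40A1 were higher and FTH1, FTL and SLC25A37 lower at an adjusted p under 0.05. The share of all genes past that threshold in the deposited table is not given here, so these genes are not set apart from the rest.

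The sensors did not pass the test. IREB2 (ENSG00000136381; chr15:78437431-78501456, plus strand), the sensor that is degraded when iron is plentiful, was at 23.8, 22.2 and 21.0 FPKM in the parental clones and at 26.1, 23.9 and 24.1 in the knockout clones. Each knockout clone exceeded each parental clone by a narrow margin, and the difference was 0.14 (SE 0.07, adjusted p = 0.207, limma). ACO1 (ENSG00000122729; chr9:32384603-32454769, plus strand) is an aconitase when it holds an iron-sulphur cluster and binds RNA when it does not. It was at 14.5, 14.5 and 14.6 in the parental clones. Its levels were 14.1, 13.6 and 12.9 in the knockout clones, all below the parental values, with a difference of -0.10 (SE 0.07, adjusted p = 0.330, limma). In 6 of the 9 tested genes the groups did not overlap, 2 higher and 4 lower, where 16.3% and 26.6% of all tested genes were separated in these directions.

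Of the remaining genes, SLC11A2 (ENSG00000110911; chr12:50979401-51028566, minus strand) ran from 22.9 to 26.6 FPKM in the parental and from 22.3 to 25.2 in the knockout clones (difference -0.06, SE 0.08, adjusted p = 0.628, limma). NCOA4 (ENSG00000266412; chr10:46005088-46030714, minus strand) ran from 79.8 to 81.3 in the parental and from 78.7 to 84.2 in the knockout clones (difference 0.02, SE 0.05, adjusted p = 0.835, limma). HMOX1 (ENSG00000100292; chr22:35380361-35394214, plus strand), which opens the haem ring to free its iron, was the only gene that failed the filter on low values. It was listed at 0 in 7 of 12 libraries, including all 3 knockout clones and both sgSCR pools, and its highest value was 0.124 FPKM in parental clone 3. It was not tested in any comparison.

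**Figure D2:**
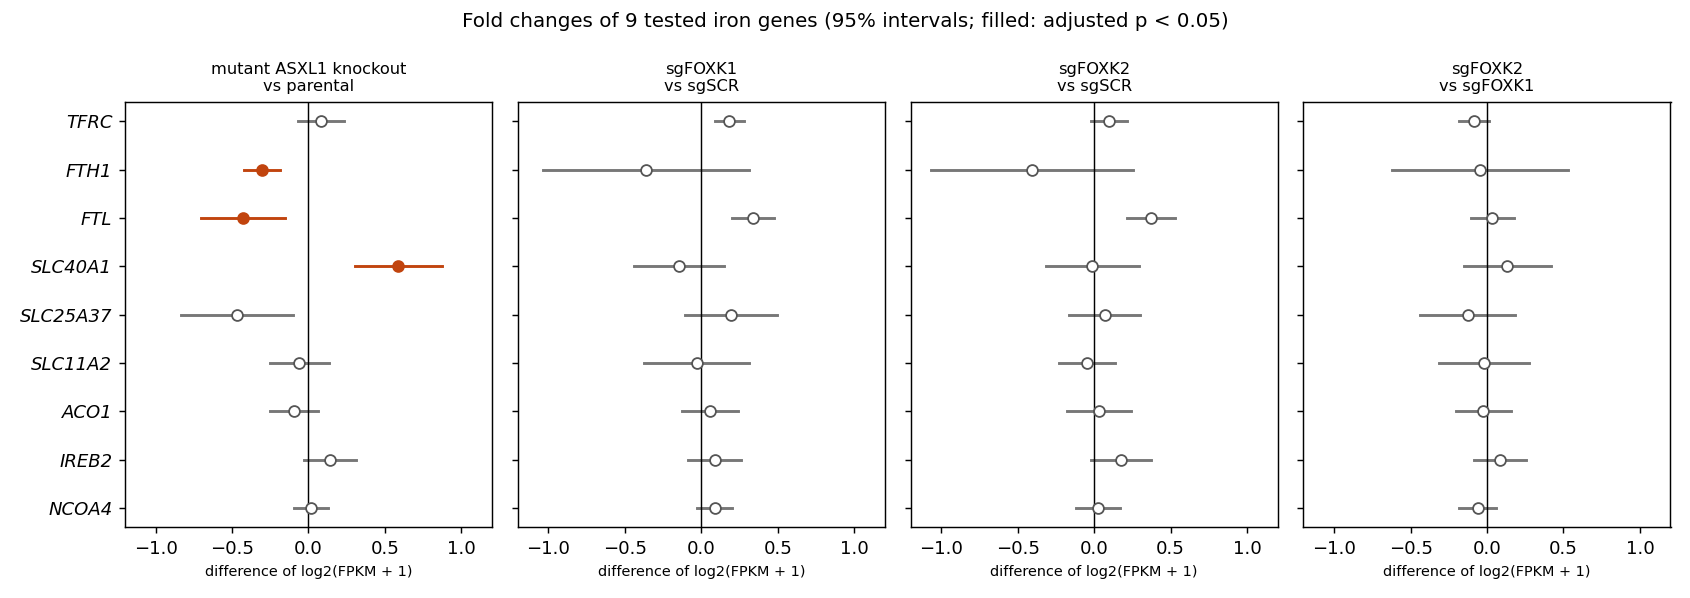
Differences of log2(FPKM + 1) for the 9 tested iron genes in 4 comparisons. Points are limma estimates, bars are 95% intervals, filled points passed an adjusted p under 0.05, and the vertical line marks no change. FTH1, FTL and SLC40A1 were called in the ASXL1 comparison, no gene was called in the other 3, and the FTH1 bars are widest where an sgSCR pool enters.

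Ratios within a library do not depend on library scaling. Those of TFRC to FTH1 were 0.241, 0.211 and 0.187 in the parental clones and 0.272, 0.270 and 0.289 in the knockout clones. The knockout clones held the higher ratio in 3 of 3 clones, 1.31-fold on average (log2 difference 0.38, exact permutation p = 0.1, two-sided). With 3 libraries against 3 the smallest p an exact permutation test can give is 0.1. The ratio of FTH1 to FTL was 0.490, 0.428 and 0.388 in the parental clones and 0.478, 0.455 and 0.486 in the knockout clones. These overlapped (log2 difference 0.13, exact permutation p = 0.4). The difference was 0.05 without parental clone 3 (exact permutation p = 0.7) and 0.21 without parental clone 1 (exact permutation p = 0.1), so its size rested on single clones. The ratio of IREB2 to ACO1 was higher in all 3 knockout clones, at 1.85, 1.76 and 1.87 against 1.64, 1.53 and 1.44 (log2 difference 0.25, exact permutation p = 0.1). P-values are unadjusted over the 9 ratio comparisons, none of which could reach 0.05.

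Erythroid markers differed among the same libraries. The summed level of the 9 marker genes, most of it the fetal globin HBG2, ran from 11342 to 21026 FPKM in the parental and from 9623 to 13960 in the knockout clones. Within the parental clones it was lowest in clone 1 and highest in clone 3, the order that FTH1, FTL and SLC25A37 also took. TFRC, SLC40A1 and IREB2 took the reverse order. Of the 9 markers 3 (GATA1, KLF1 and EPOR) were lower in every knockout than in every parental clone, and 6 overlapped. GATA1, the erythroid master regulator, was at 246 to 287 FPKM in the parental clones and at 190 to 204 in the knockout clones, while HBE1 and HBG1 had higher means in the knockout clones (147 against 135, and 22.8 against 20.3). The part of this in the values of the ferritin chains, mitoferrin, the exporter and the other iron genes was not tested.

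The second comparison asks what loss of FOXK1, a forkhead transcription factor, does to transcripts. No iron gene was called: 0 of 9 tested passed in limma, where 1.83% of all 13697 tested genes were called. At an unadjusted p under 0.05 there were 2, TFRC and FTL, both higher, against 22.9% of all tested genes. The authors' deposited table gives TFRC, FTL and SLC25A37 an adjusted p under 0.05, all higher, and the share over all genes there is not given here. In 6 of the 9 genes both sgFOXK1 pools exceeded both sgSCR pools, and in 0 both lay below, where 31.3% and 23.6% of all tested genes were separated in these directions. Each group had 2 pools, and no gene of the genome was called when any 1 pool was left out.

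FTL was at 3104 and 2953 FPKM in the sgSCR pools and at 3714 and 3944 in the sgFOXK1 pools. The guide pools stood apart from the controls by more than the gap within either pair. The difference was 0.34 (SE 0.05, interval 0.20 to 0.47, adjusted p = 0.0632, limma). It passed in 3 of 14 alternative settings. These were upper-quartile scaling (0.0485), the library factors removed (0.0392) and the joint fit of the 6 pools (0.0470). The authors' deposited table lists 0.30 on the log2 scale (adjusted p = 3.92e-06).

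FTH1 was at 1671 and 2828 FPKM in the sgSCR pools and at 1650.4 and 1732 in the sgFOXK1 pools. A single control pool, sgSCR 2, stood far above all 11 other libraries. Its ratio to sgSCR 1 was 1.69, the third widest gap among 1181 genes of at least 100 FPKM, behind NMU and FP236383.1. For FTL the same ratio was 0.951. The FTH1 difference was -0.36 (SE 0.25, adjusted p = 0.456, limma). It was 0.02 (adjusted p = 0.901) without sgSCR 2 and -0.74 without sgSCR 1, so the direction rested on that pool.

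TFRC was at 332 and 335 FPKM in the sgSCR pools and at 381 and 376 in the sgFOXK1 pools. Both pairs were tight and did not overlap. The difference was 0.18 (SE 0.04, interval 0.09 to 0.28, adjusted p = 0.0894, limma), and it passed in none of 13 alternative settings. The authors' deposited table gives 0.17 with an adjusted p of 0.0159.

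The other genes showed smaller or less even differences. SLC25A37 was at 134 and 131 FPKM in the sgSCR pools and at 169.6 and 135 in the sgFOXK1 pools, so the higher mean came mostly from sgFOXK1 1 (difference 0.19, SE 0.11, adjusted p = 0.380, limma). SLC40A1 overlapped, with 32.5 and 39.3 against 33.8 and 30.8 (difference -0.14, SE 0.11, adjusted p = 0.499, limma). SLC11A2 was at 26.97 and 25.1 in the controls and at 28.8 and 22.5 in the sgFOXK1 pools, which held the highest value of the pools and also their lowest. NCOA4 (0.09), IREB2 (0.09) and ACO1 (0.06) had differences whose intervals included 0, although for each of them both sgFOXK1 pools lay above both sgSCR pools.

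The third comparison repeats the question for FOXK2, the paralogue of FOXK1, against the same 2 sgSCR pools, so its values are not independent of those for FOXK1. Again 0 of 9 tested genes were called in limma, where 1.02% of all 13672 tested genes were. At an unadjusted p under 0.05 there was 1, FTL, against 20.7% of all tested genes. The authors' deposited table gives FTL (higher) and FTH1 (lower) an adjusted p under 0.05, and the share over all genes there is not given here. The groups did not overlap for 3 genes that were higher and 1 that was lower, where 29.2% and 24.8% of all tested genes were.

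FTL was at 3812 and 4025 FPKM in the sgFOXK2 pools, both above the sgSCR values of 3104 and 2953. The difference was 0.37 (SE 0.06, interval 0.21 to 0.53, adjusted p = 0.0853, limma). It passed in 4 of 13 alternative settings. These were median-ratio scaling (0.0419), upper-quartile scaling (0.0387), the library factors removed (0.0290) and the joint fit (0.0435). FTH1 was at 1622 and 1659.9, just below sgSCR 1, and its difference of -0.41 (SE 0.25, adjusted p = 0.417, limma) shrank to -0.03 (adjusted p = 0.893) without sgSCR 2.

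TFRC was at 359 and 355 FPKM in the sgFOXK2 pools, above both controls (difference 0.10, SE 0.04, adjusted p = 0.296, limma). IREB2 was at 24.7 and 22.8 against 20.5 and 21.4 in the controls (difference 0.17, SE 0.08, adjusted p = 0.281, limma). SLC25A37 was at 128 and 150.3, with the controls in between (difference 0.07, SE 0.09, adjusted p = 0.703, limma). SLC40A1, SLC11A2, ACO1 and NCOA4 overlapped the controls, with differences of -0.01, -0.05, 0.03 and 0.03.

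The ratio of FTH1 to FTL was 0.538 in sgSCR 1 and 0.958 in sgSCR 2, against 0.444 and 0.439 in the sgFOXK1 pools and 0.425 and 0.412 in the sgFOXK2 pools. All 4 FOXK pools lay below both controls, and sgSCR 2 stood apart from every other library. The log2 difference was -0.70 for FOXK1 and -0.78 for FOXK2, each with an exact permutation p of 0.333, the smallest that 2 against 2 can give. Without sgSCR 2 it was -0.29 and -0.36. The ratio of TFRC to FTH1 was higher in the FOXK pools by 0.55 and 0.50, and by 0.17 and 0.13 without sgSCR 2 (exact permutation p = 0.333 each). The ratio of IREB2 to ACO1 differed by 0.03 for FOXK1, with overlapping pools (exact permutation p = 1), and by 0.15 for FOXK2, without overlap (exact permutation p = 0.333).

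**Figure D3:**
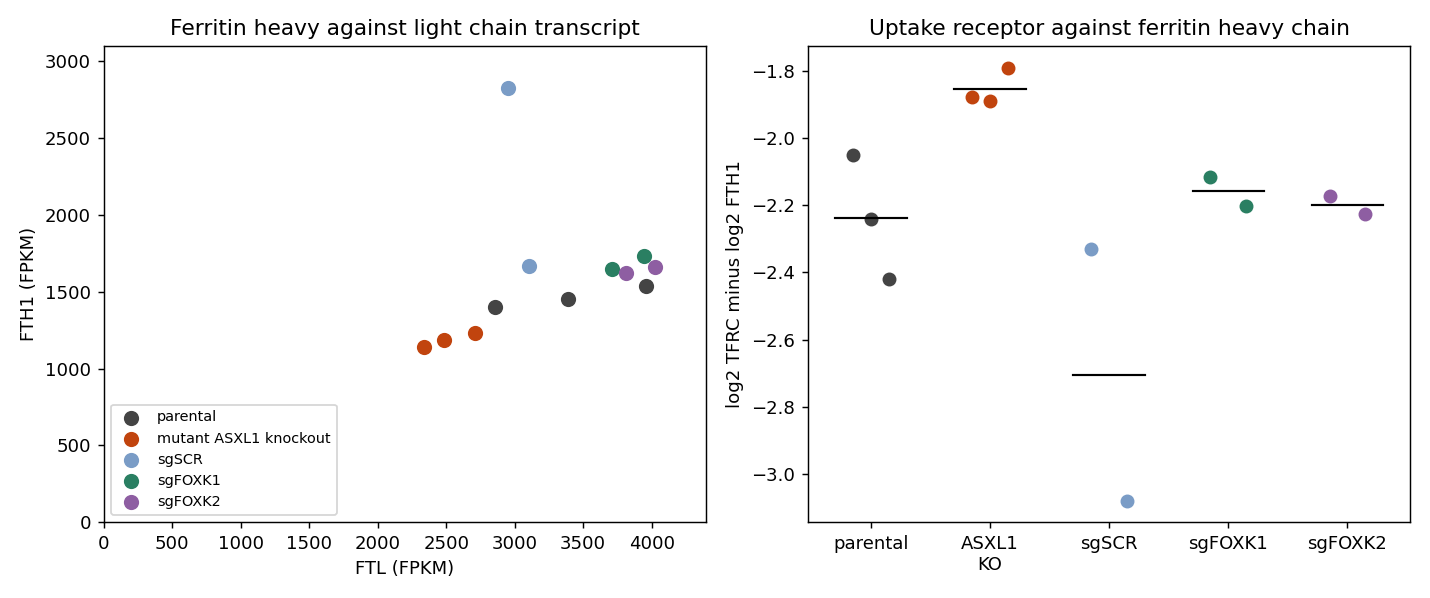
Left, FTH1 against FTL in FPKM, 1 point per library, with both axes from 0. Right, log2 TFRC minus log2 FTH1 per library with group means as lines. A single sgSCR pool stands apart at an FTH1 of 2828 FPKM, the 3 knockout clones hold the lowest values of both chains, and the ratio on the right is highest in those clones.

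Fetal globin stood higher in the FOXK pools, and other erythroid markers varied. The summed level of the 9 markers was 14245 to 15011 FPKM in the sgSCR pools, 23917 to 24706 in the sgFOXK1 pools and 21423 to 24438 in the sgFOXK2 pools, most of it HBG2. The near-identical globin genes HBG1 and HBG2 can share reads. HBG1, HBG2 and HBE1 were among the markers that lay above both sgSCR pools in all 4 FOXK pools, while GATA1, KLF1, HBZ, TAL1 and EPOR overlapped them. In the sgFOXK1 pools alone 8 of 9 lay above, all but GATA1. FTL was higher in the pools that held more globin transcript, and the part of this in the FTL values was not tested.

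Set directly against each other, the FOXK2 and FOXK1 pools gave no called iron gene. In limma 0 of 9 tested passed, where 5 of 14055 tested genes, or 0.0356%, were called. At an unadjusted p under 0.05 there were 0, against 6.42% of all tested genes. TFRC (difference -0.08, interval -0.18 to 0.01) and NCOA4 were lower and IREB2 (0.09, interval -0.09 to 0.26) higher in both sgFOXK2 pools than in both sgFOXK1 pools. Of all tested genes, 15.5% were separated upwards and 21.3% downwards in this way. For FTL the difference was 0.03 (interval -0.11 to 0.17, adjusted p = 0.924, limma).

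For SLC25A37 and for FTH1, all pools lay above all clones. The level of SLC25A37 was 54.0 to 102.7 FPKM over the 6 clones and 128.1 to 169.6 over the 6 pools. FTH1 ran from 1138 to 1536 over the clones and from 1622 to 2828 over the pools, or to 1732 without sgSCR 2. The sgSCR pools held 1.64 times the parental mean of SLC25A37 and 1.54 times that of FTH1. Clonal origin, handling and guide cannot be told apart between these sets, so no test is given. CD68, the single macrophage marker that reached 1 FPKM, was also apart between them, at 25.4 to 36.1 FPKM in the clones and 15.4 to 17.9 in the pools, and its part in the SLC25A37 and FTH1 levels was not tested.

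Genes of iron handling beyond the 10 were read from 8 lists, with 97 genes matched. In the ASXL1 comparison 81 of them were tested, and 7 were higher (8.64%) and 15 lower (18.5%), near the 7.91% and 14.4% of all tested genes. In the FOXK1 comparison 80 were tested, and 0 were higher and 2 lower (2.5% called, against 1.83% of all tested genes). For FOXK2 0 of 80 were higher and 1 lower (1.25% against 1.02%). Between FOXK2 and FOXK1, 0 were called.

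Among 12 tested genes of surface and endosomal transport, 2 rose and 4 fell in the ASXL1 knockout clones, where 7.91% of all tested genes rose and 14.4% fell. SLC39A14, a transporter for iron not bound to transferrin, rose from 32.1 to 42.7 FPKM (log2 0.40, SE 0.06, adjusted p = 0.00634, limma). TFR2, a second transferrin receptor that is a partner of the erythropoietin receptor in erythroid cells, fell from 92.3 to 70.1 (log2 -0.39, SE 0.06, adjusted p = 0.00871, limma). MCOLN1, an endolysosomal channel that passes iron, fell from 8.60 to 5.22 (log2 -0.63), and the ferric reductase CYBRD1 from 13.3 to 8.996 (log2 -0.51). Transport genes thus changed in both directions, and the median of the 12 was -0.09 against -0.06 over all genes.

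Of 19 mitochondrial iron and iron-sulphur genes, all tested, 1 rose and 4 fell, which is 26.3% called against 22.4% of all tested genes. HSPA9, a chaperone of cluster assembly and of protein import, rose from 358 to 483 FPKM (log2 0.43, SE 0.05, adjusted p = 0.00241, limma). TMEM14C, which transports a haem precursor in erythroid mitochondria, fell from 181 to 127 (log2 -0.51, SE 0.06, adjusted p = 0.00256, limma). ABCB10, a partner of SLC25A37 in the inner membrane, fell from 18.4 to 14.5 (log2 -0.33, SE 0.09, adjusted p = 0.0476, limma). BOLA3 and LYRM4, both of cluster assembly, also fell, and the median of the list was -0.19. In the cytosolic assembly list 2 of 9 genes fell, CIAO3 (log2 -0.36) and NUBP2 (log2 -0.23), and 0 rose. That is 22.2% called, against 22.4% of all tested genes.

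In the haem transport and breakdown list 1 of 6 tested genes changed, or 16.7%, against 22.4% of all tested genes. BLVRB, a biliverdin reductase acting after haem oxygenase, fell from 499.98 to 361 FPKM (log2 -0.47, SE 0.10, adjusted p = 0.0177, limma). HMOX2, the constitutive haem oxygenase, stood at 55.01 FPKM in parental and at 48.1 in knockout clones (adjusted p = 0.149, limma), far above HMOX1 in every group mean. Of 13 genes of the BACH1 and NRF2 axis, which controls HMOX1, 2 rose and 0 fell. That is 15.4% called, against 22.4% of all tested genes, and the others, NQO1 among them, were not called. NFE2L2, which encodes NRF2, rose from 43.3 to 53.4 (log2 0.30, SE 0.06, adjusted p = 0.0146, limma), and SRXN1, one of its targets, from 15.1 to 20.1 (log2 0.40).

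BMPR1A rose (log2 0.49) and NEO1 fell (log2 -0.48) among 7 tested hormone genes, and the hormone HAMP itself did not pass the filter. The share called was 28.6%, against 22.4% of all tested genes. HERC2, a ligase that acts on NCOA4, fell (log2 -0.24) as the only called gene among 10 tested cytosolic genes (10%). FBXL5, which marks IREB2 for degradation, was at 16.4 and 13.7 FPKM (log2 -0.25, adjusted p = 0.146, limma). Among other transcripts with described iron-responsive elements, CDC14A rose (log2 0.30) and CDC42BPA fell (log2 -0.32). ALAS2, the erythroid enzyme that starts haem synthesis, was at 23.2 against 16.6 in the parental clones and did not pass (adjusted p = 0.123, limma).

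Transferrin itself fell in both FOXK sets. TF was at 17.2 and 18.3 FPKM in the sgSCR pools, at 9.58 and 8.25 in the sgFOXK1 pools and at 7.54 and 8.44 in the sgFOXK2 pools. All 4 FOXK pools lay well below both shared control pools. The log2 difference was -0.92 for FOXK1 (SE 0.10, adjusted p = 0.0369, limma) and -1.06 for FOXK2 (SE 0.09, adjusted p = 0.0295, limma). ERFE, the erythroid hormone erythroferrone that lowers HAMP, was at 12.4 and 11.8 in the sgSCR pools and at 6.69 and 6.13 in the sgFOXK1 pools (log2 -0.83, SE 0.09, adjusted p = 0.0376, limma). With any 1 pool left out none of these calls held, as 0 genes were called in those fits. All 3 were also lost with no filter (adjusted p = 0.116 for TF and ERFE in FOXK1, 0.124 for TF in FOXK2), with a replicate block (0.0847, 0.0856 and 0.0635) and with no variance trend (0.0840, 0.0692 and 0.0579). A crossed replicate block lost both FOXK1 calls (adjusted p = 0.0614 for TF and 0.0810 for ERFE, limma). The ERFE call was lost in the joint fit of the 6 pools too (0.0719). For FOXK2, ERFE was not called in the main fit (log2 -0.71, adjusted p = 0.154, limma). Cultured cells draw transferrin from serum, which these data do not measure.

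**Figure D4:**
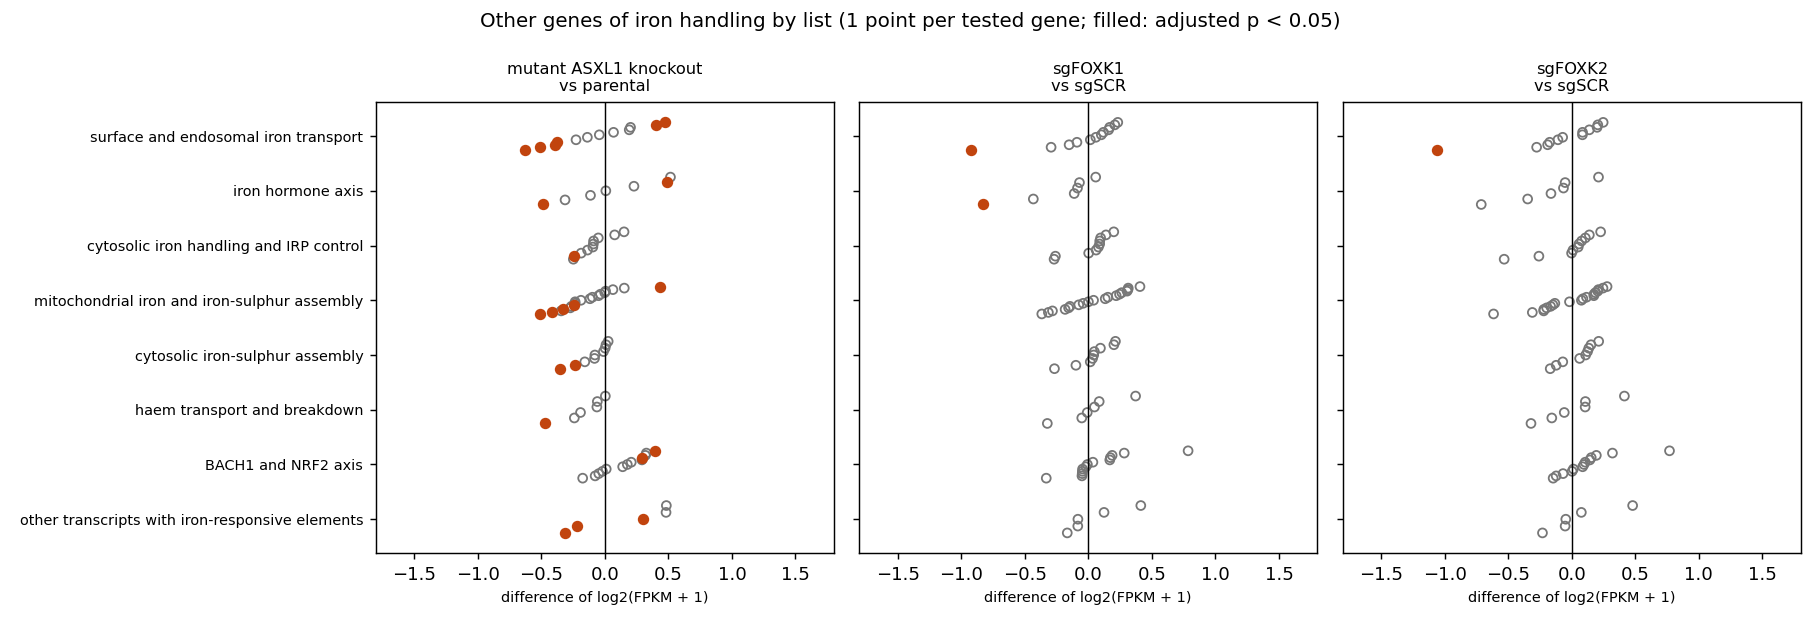
Differences of log2(FPKM + 1) for genes of 8 iron lists in 3 comparisons, 1 point per tested gene, with filled points for an adjusted p under 0.05. Points are spread vertically within a list for legibility. In the ASXL1 panel 22 points are filled, on both sides of 0, while the FOXK1 panel holds 2 (TF and ERFE) and the FOXK2 panel 1 (TF), all below 0.

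Genes with a course like that of each member were found as those with the smallest root mean square difference between mean-centred log2(FPKM + 1) profiles over the 12 libraries, among 14394 genes. For FTL they were EXOSC7, SNRPG and PHB, at 0.066, 0.068 and 0.069, where the FTL profile itself had a root mean square of 0.265. For FTH1 they were B3GALT6, ZBTB7A and RAB4A, at 0.108 to 0.123 against 0.329, so no gene followed FTH1 as closely. ZNF77, NFATC3 and CGGBP1 were nearest to SLC40A1, at 0.109 to 0.113 against 0.277. AC245140.2, INSIG1 and FASN were nearest to SLC25A37, at 0.143 to 0.148 against 0.579. For TFRC they were CUL1, SRSF1 and NSRP1, at 0.050 to 0.052 against 0.111.

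RBM25 and PA2G4 lay nearest to ACO1, DIP2B, BORA and OSBPL8 to IREB2, COX10, IPO9 and POGZ to SLC11A2, and COPS5, MTX2 and TPT1 to NCOA4. For NCOA4 the likeness of 0.037 to 0.042 was little below its own root mean square of 0.046, so it describes flat courses. No other member stood among the 3 nearest to any member. The 12 libraries share a cell line and, within sets, controls, and likeness over them carries no test.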

How the data were processed

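Libraries were made from total RNA with an Illumina TruSeq kit and read on an Illumina HiSeq instrument, per the labels' protocols. The submitters' processing notes name GRCh38.p10, TopHat, Bowtie, RSEM, edgeR and Cufflinks, without version or role. The deposited tables give FPKM per gene and library, per the file headers. The authors also deposited log2 fold changes and p-values with adjusted p-values for 3 comparisons, quoted only where named as theirs. In each library 99.98% to 100% of FPKM from 5 to 20 were multiples of 0.01 times 1 library factor, from 0.950 to 1.036. The product of the 12 factors was 1, so all libraries were taken as set on one scale. The lowest values rose as transcripts got shorter, as length scaling gives. The step is rounding, not a read, so counts were not recovered and the planned count test gave way to its named fallback, limma. Depth is unknown.

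Tests used log2(FPKM + 1) in limma (version 3.58.1, under R 4.3.3), with the variance trend turned on. The added 1 shrinks changes of low genes. The filter kept genes at 1 FPKM or more in a number of libraries equal to the smaller group. Tests were two-sided. Each knockout was fitted with its own controls, and FOXK2 was set against FOXK1 in a joint fit of 6 pools. Single ratios had exact permutation tests. The sgSCR values were identical in the FOXK1 and FOXK2 tables, and 0 columns of other samples were present. Nothing beyond the labels shows separate cultures, so p-values measure the spread between these libraries. The fit was tested on simulated data. Members and lists were chosen with earlier results of these data known. Named were all 10 members, the targeted genes, up to 4 called genes per list by smallest adjusted p, list genes needed to say what a list holds, the 3 highest ferritin copies and the 3 genes nearest to each member; some genes that this rule gives are not reported here. Positions and sequences came from GENCODE 29. Alternatives were another added value, no filter, 2 scalings, no trend, a replicate block and each library left out, and, chosen after seeing the data, the library factor removed, a joint fit of the pools, a crossed block and ferritin copies summed. Python 3.11.15 with numpy 2.4.6, pandas 2.3.3 and matplotlib 3.10.9 prepared the tables and figures.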

Additional observations from a re-analysis of the deposited data

How the results depend on the processing

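Over all alternatives, 426 of the 467 values for single members kept their direction and their side of the threshold. Another 15 lost the call, all for FTL or SLC40A1 in the ASXL1 comparison, 9 gained one and 17 turned direction, none of a called gene. With the library factors removed, a choice made after seeing the data, SLC11A2 turned to 0.0200 in the ASXL1 comparison and to 0.00061 for FOXK2 against FOXK1. Leaving out 1 library turned directions within these log2 ranges: for ASXL1, NCOA4 -0.0076 to 0.041; for FOXK1, FTH1 -0.74 to 0.017 and SLC11A2 -0.20 to 0.14, and the IREB2 to ACO1 ratio -0.026 to 0.092. For FOXK2 they were SLC11A2 -0.10 to 0.00044, SLC40A1 -0.15 to 0.12, ACO1 -0.023 to 0.086, NCOA4 -0.011 to 0.066 and SLC25A37 -0.046 to 0.18. For FOXK2 against FOXK1 they were FTL -0.0097 to 0.077, SLC25A37 -0.29 to 0.035, SLC11A2 -0.19 to 0.15 and ACO1 -0.078 to 0.031.

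Counts of called genes moved more than 1.5-fold under some settings. The ASXL1 count of 3039 was 1947 with no filter and 1287 to 2699 with a library left out. The FOXK1 count of 250 was 10 with no filter, 69 with no trend, 412 in the joint fit of 6 pools and 0 to 0 with a pool left out. The FOXK2 count of 139 was 0 with no filter (3496 at an unadjusted p under 0.05), 52 with no trend, 284 in the joint fit and 0 to 0 with a pool left out. In those 8 fits 1497 to 2492 genes had an unadjusted p under 0.05 in limma. The FOXK2 against FOXK1 count of 5 was 2 with no filter, 12 with no trend and 0 to 10 with a pool left out. Fewer samples remain in a left-out fit, and a lone pool is then assumed to vary like the others. The cause of the other moves was not tested.

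The numbers name clones and pools in the labels and were not taken as pairs. Across genes, same-numbered clones had correlations of -0.083 to 0.084 and different-numbered clones of -0.115 to 0.171. Same-numbered pools ran from -0.129 to 0.043. With 2 pools per group, different-numbered pools give the same values with the sign turned, so these correlations cannot settle pairing. With a replicate block the counts were 1824 for ASXL1, 37 for FOXK1, 39 for FOXK2 and 2 for FOXK2 against FOXK1. A crossed block, chosen after seeing the correlation of -0.129 for FOXK1, gave 34. The count test was not run, because whole reads could not be recovered. Depth is unknown, so low levels such as those of HMOX1 have no limit of detection.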
